A study of Homo sapiens with 31 samples.

Results

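The comparison described here set the 4 arrays of chip cultures given the ZnO-control medium against the 4 arrays of chip cultures given the TiO2-control medium, 8 of the 31 arrays of the series. The members were chosen by their titles alone, and neither group received nanomaterial. All cultures were Caco-2 (HTB-37), a human colorectal adenocarcinoma line, at passage 29 to 45, kept for 21 days in a gut-on-chip under a flow of 100 µL/h of DMEM+ and then given a dispersion solution without nanomaterial, with the flow stopped, for 6 h. Each of the nanomaterials titanium dioxide (TiO2) and zinc oxide (ZnO) had its own control solution, and the labels do not say how the solutions differed. The other chip arrays were 4 exposed to 100 µg/mL TiO2 and 4 exposed to 80 µg/mL ZnO. Transwell inserts, without flow, carried control media of the same names in 4 ZnO-control and 4 TiO2-control arrays. Beside these control arrays were 4 arrays exposed to 10 µg/mL ZnO and 3 exposed to 50 µg/mL TiO2. Whether the Transwell media were identical to those of the chip is not shown here. A difference between the control groups can come from the medium or from the set of cultures grown for each nanomaterial, and medium and culture batch cannot be told apart. The labels do not say that replicates came from separate cultures, so p-values measure only the spread between these arrays, which may be technical.

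Caco-2 cells kept confluent stop dividing, polarise and take on many features of small-intestinal enterocytes, including a brush border with digestive enzymes and transporters. They also package dietary fat into lipoproteins, for which microsomal triglyceride transfer protein loads lipid onto apolipoprotein B. As a line from colon that resembles fetal gut, Caco-2 expresses several genes better known from liver. How far this programme has advanced varies between cultures, with passage number and with time at confluence.

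Total RNA was read on whole-transcript arrays, and the deposited values are log2 intensities, with 1 value kept for each of 22395 genes. Array medians ran from 3.24 to 3.33 over the series, and the number of arrays limits the precision. A gene is called not shown above background where its group mean lay under the medians of all 4 arrays in the group. The chip arrays carried the epithelial markers, with the adhesion molecule EPCAM between 11.51 and 11.70 in all 8 arrays. Of 14 measured enterocyte markers 1 was not shown above background. The same held for 2 of 5 immune, 2 of 5 stromal and 1 of 3 endothelial markers in both groups, and the mean level of the immune markers was 3.76 to 4.08 in ZnO-control and 3.84 to 4.01 in TiO2-control arrays. The immune markers CD14, CSF1R and ITGAM were not under this limit in an epithelial line, so clearing it does not show that a gene is expressed. Chip replicates spread more than Transwell replicates, with a root mean within-group variance of 0.289 against 0.186 on the log2 scale over the 11197 brighter genes. In what follows a difference is always ZnO-control minus TiO2-control on the log2 scale, with its standard error from limma. A gene passed when its Benjamini-Hochberg adjusted p from limma was below 0.05.

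The array labelled TiO2-control replicate 4 lay with the other group. Its root mean square log2 distance over the brighter genes was 0.356 to 0.388 (mean 0.369) to the 4 ZnO-control arrays and 0.414 to 0.508 (mean 0.449) to the other 3 TiO2-control arrays. TiO2-control replicates 1, 2 and 3 were each nearer to their own group, with mean distances of 0.396, 0.414 and 0.363 against 0.425, 0.469 and 0.406. Of the ZnO-control arrays, replicate 3 was marginally nearer to the TiO2-control group (0.399 against 0.404), and the other 3 were nearer to their own. In a limma fit of chip TiO2 against TiO2-control over replicates 1 to 3, 10 of 22395 genes passed. For 9 of the 10, TiO2 replicate 4 minus TiO2-control replicate 4 had the opposite sign. The replicate 4 values rest on 1 array per group and are a description. Whether labels were exchanged was not tested. The results below are given with all arrays and without TiO2-control replicate 4, and "without replicate 4" refers to that array.

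A fit without replicate 4 of both chip TiO2 groups gave 6 passing genes (0.0268% of all genes), all lower in ZnO-control: SERPINC1, SLC2A5, CPEB2, XPNPEP2, TMT1A and ANKRD40CL. These genes placed every array on a scale from 0, the mean of TiO2-control replicates 1 to 3, to 1, the mean of the ZnO-control arrays. The genes were chosen for the gap between those 7 arrays, so their positions are fixed by the choice, and the other positions are a description without a test. TiO2-control replicate 4 lay at a median position of 0.947 and was nearer to ZnO-control for 6 of the 6 genes. The 4 chip arrays exposed to ZnO lay at 0.881 to 1.03, beside their own controls. Chip arrays exposed to TiO2 lay at 0.229, 0.0208 and 0.124 for replicates 1 to 3 and at 0.984 for replicate 4. The place of TiO2 replicate 4 depended on the genes used, at 0.646 with the 30 genes at an unadjusted p below 0.0001 in the same fit and at 0.506 with the 144 below 0.001. It was nearer to ZnO-control in 74 of the 144. On Transwell the sets also lay apart on the 6 genes, at -0.740 to -0.646 for TiO2 and its control and at -0.406 to -0.246 for ZnO and its control. Both lay beyond the TiO2-control end of the chip scale. With the 144 genes these Transwell sets lay close together, at -0.129 to -0.0336 and at -0.0168 to 0.171. The ZnO set was then no longer wholly beyond that end. With the 144 genes TiO2-control replicate 4 lay at 0.864 and the ZnO-exposed arrays at 0.722 to 0.936. TiO2 replicate 4 was the highest of the TiO2-exposed arrays, which ran from 0.207.

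**Figure D1:**
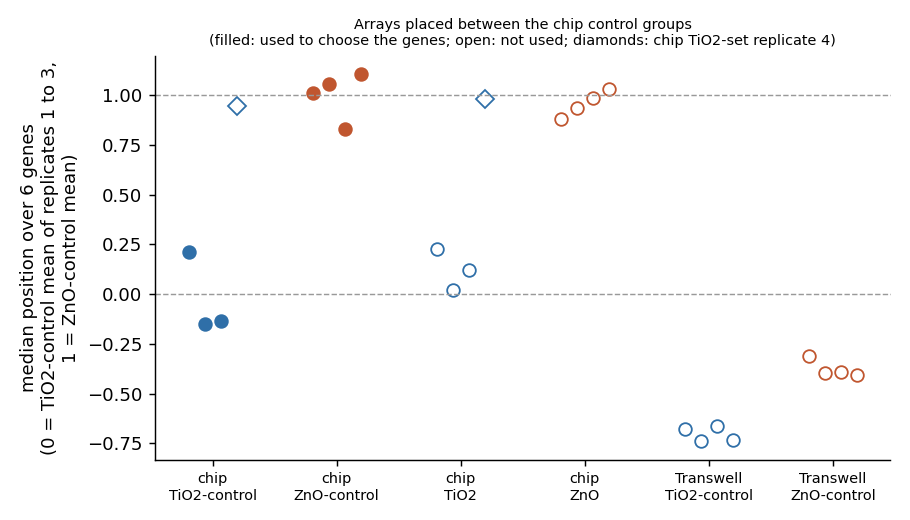
Median position of each array (y axis, no unit) over the 6 genes that passed between the chip ZnO-control arrays and TiO2-control replicates 1 to 3, by group (x axis); each point is 1 array, filled where it was used to choose the genes, and diamonds are replicate 4 of the chip TiO2 groups. On these 6 genes TiO2-control replicate 4 sits at 0.947 and TiO2 replicate 4 at 0.984, among the ZnO-set arrays of the chip, and the Transwell arrays sit below 0.

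With all 8 arrays 0 of 22395 genes (0%) passed, and the smallest adjusted p was 0.232 in limma. At an unadjusted p below 0.05 there were 1424 genes (6.36%), 720 higher (3.22%) and 704 lower (3.14%) in ZnO-control. The 2 groups did not overlap in 717 genes (3.2%), 384 higher (1.71%) and 333 lower (1.49%). A difference of at least 2-fold was seen in 49 genes (0.219%). Over the 11197 brighter genes the median 95% interval reached 0.354 to either side. That interval is not adjusted for the number of genes, so a typical gene needed a larger difference to pass. Even ST3GAL4, at 0.81 ± 0.13, did not pass (limma adjusted p = 0.232). Without TiO2-control replicate 4, 1 gene passed (0.00447%), CPEB2, and 2073 (9.26%) had an unadjusted p below 0.05, 1100 higher (4.91%) and 973 lower (4.34%). The groups then did not overlap in 2316 genes (10.3%), 1212 higher (5.41%) and 1104 lower (4.93%), a criterion that is easier to meet with 3 arrays, and 118 (0.527%) differed at least 2-fold. When the spread was estimated over all 31 arrays, Transwell included, 13 genes passed (0.058%), 3 higher (0.0134%) and 10 lower (0.0447%). Without replicate 4 this count was 317 (1.42%), 133 higher (0.594%) and 184 lower (0.822%), the 13 among them. That estimate borrows the smaller spread of the Transwell arrays. No gene is therefore said to have risen or fallen between all 8 arrays, and the genes below were chosen for their values, after these were seen.

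Among genes of lipid export, MTTP, the microsomal triglyceride transfer protein, read 5.65, 5.85, 7.66 and 5.78 in ZnO-control replicates 1 to 4 and 8.23, 8.56, 8.88 and 6.89 in TiO2-control. ZnO-control replicate 3 and TiO2-control replicate 4 were the arrays nearest the other group, and the groups overlapped. The difference was -1.90 ± 0.47 (95% interval -2.90 to -0.90, limma adjusted p = 0.564), and -2.32 ± 0.45 (adjusted p = 0.0957) without replicate 4. APOA4, an apolipoprotein of intestinal chylomicrons, read 6.64, 8.65, 8.24 and 8.61 against 9.40, 11.20, 10.72 and 8.47, so that TiO2-control replicate 4 lay inside the ZnO-control range. Its difference of -1.91 ± 0.52 (limma adjusted p = 0.569) was -2.41 ± 0.49 (adjusted p = 0.102) without that array. APOC1 (-0.59 ± 0.15, and -0.69 ± 0.16 without replicate 4) and APOC3 (-0.51 ± 0.23, and -0.72 ± 0.21), both exchangeable apolipoproteins, gave smaller differences in the same direction. Over the list of 21 measured genes of lipid absorption and lipoproteins the median difference was -0.16, and 4 members lay above 0. Of these 21, 5 were lower at an unadjusted p below 0.05 and 0 were higher, against 3.14% and 3.22% of all genes. The median over all genes was 0.00, and 50.4% of them lay above 0. Without replicate 4 the list's median was -0.23, with 8 lower and 0 higher, against 4.34% and 4.91% of all genes, and 51.9% of all genes lay above 0.

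Brush border genes also had mostly negative differences. SLC2A5, the apical fructose transporter, read 3.34, 3.27, 3.62 and 3.22 in ZnO-control and 4.21, 5.21, 5.22 and 3.98 in TiO2-control, without overlap even with replicate 4. Its difference was -1.29 ± 0.25 (limma adjusted p = 0.422), and -1.52 ± 0.24 (adjusted p = 0.0516) without that array. The mean of SLC2A5 in ZnO-control, 3.36, lay only just above the array medians of 3.24 to 3.33, so the size of this difference is uncertain. ANPEP, the brush border aminopeptidase N, read 7.42, 7.45, 8.03 and 7.52 against 8.30, 9.29, 9.19 and 8.05, with TiO2-control replicate 4 only just above the highest ZnO-control array. The difference was -1.10 ± 0.33, and -1.32 ± 0.34 without replicate 4 (limma adjusted p = 0.606 and 0.195). XPNPEP2, the membrane-bound aminopeptidase P, read 5.26, 5.18, 6.44 and 5.30 against 6.98, 8.53, 8.23 and 5.78. It differed by -1.83 ± 0.61, and by -2.37 ± 0.58 without replicate 4 (limma adjusted p = 0.635 and 0.175), and passed in the fit without replicate 4 of both TiO2 groups. Of the 31 measured members of the enterocyte and brush border list 6 lay above 0, with a median of -0.28. At an unadjusted p below 0.05 9 members were lower and 0 higher, against 3.14% and 3.22% of all genes. Without replicate 4 12 were lower and 0 higher, against 4.34% and 4.91%, with a median of -0.34. The median level of the list relative to the mean of the 8 arrays was -0.56, -0.18, 0.11 and -0.14 in ZnO-control replicates 1 to 4. It was 0.01, 0.31, 0.37 and -0.12 in TiO2-control, so ZnO-control replicate 3 and TiO2-control replicate 4 each lay within the range of the other group. The lipid and enterocyte lists share members, MTTP and APOA4 included. In bulk RNA, fewer cells of a differentiated state and less RNA per cell cannot be told apart.

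The remaining genes with large negative differences had mixed roles. SERPINC1, antithrombin, an inhibitor of blood clotting made chiefly by liver, read 5.63, 5.81, 6.87 and 5.51 in ZnO-control and 7.86, 8.68, 8.996 and 6.00 in TiO2-control. Its difference was -1.93 ± 0.51 (limma adjusted p = 0.569) with all arrays and -2.56 ± 0.38 (adjusted p = 0.0516) without replicate 4. CPS1, which makes carbamoyl phosphate for the urea cycle, read 4.78, 4.92, 6.06 and 4.41 against 6.52, 7.35, 7.42 and 5.33, a difference of -1.61 ± 0.53, and -2.05 ± 0.51 without replicate 4. LOX, the lysyl oxidase that cross-links collagen and elastin, read 5.65, 6.67, 7.48 and 6.34 against 8.48, 8.58, 8.62 and 6.38. TiO2-control replicate 4 stood more than 2 log2 units under its 3 group members for LOX, and the difference was -1.48 ± 0.44 with it and -2.03 ± 0.34 without (limma adjusted p = 0.606 and 0.0793). CPEB2, a protein that binds cytoplasmic polyadenylation elements in mRNA, read 4.59, 4.77, 4.85 and 4.18 against 5.87, 6.26, 6.27 and 4.61. Its difference was -1.16 ± 0.29 (limma adjusted p = 0.569) with all arrays, and it fell by 1.54 ± 0.20 (adjusted p = 0.0262) without replicate 4. TUBAL3, an alpha-tubulin-like protein, was the only one of the 12 largest negative differences, taken among genes at an unadjusted p below 0.01 with and without replicate 4, whose groups did not overlap (3.80 to 4.71 against 5.22 to 6.19), at -1.42 ± 0.31, and -1.59 ± 0.33 without replicate 4. The rest of those 12 were the lectin ZG16 (-1.52 ± 0.43, and -1.997 ± 0.36 without replicate 4), the death ligand TNFSF10 (-1.39 ± 0.46, and -1.70 ± 0.47), MS4A10 (-2.02 ± 0.62, and -2.65 ± 0.55) and TMT1A (-1.56 ± 0.48, and -2.02 ± 0.44). The phosphate transporter SLC17A1 was also among them, but it was not shown above background in ZnO-control, so the size of its difference is uncertain. TiO2-control replicate 4 was nearer to the ZnO-control mean in 11 of these 12 genes. They were chosen by their values in the same arrays, so this count is a description. Over all genes 1.49% did not overlap and were lower.

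The 12 genes named for positive differences were chosen by the same limit of an unadjusted p below 0.01 in both fits, so larger but more scattered differences are not among them. DHRS2, a dehydrogenase, was such a gene (1.21 ± 0.44, and 1.54 ± 0.44 without replicate 4). ST3GAL4, a sialyltransferase that caps glycans on secreted and surface proteins, had the smallest p of all genes. It read 5.15, 5.08, 4.73 and 5.21 in ZnO-control and 4.17, 4.22, 4.25 and 4.28 in TiO2-control, where replicate 4 lay with its own group. The difference was 0.81 ± 0.13 (95% interval 0.54 to 1.09, limma adjusted p = 0.232), and 0.83 ± 0.14 (adjusted p = 0.0906) without replicate 4. ATP6V1B1, a subunit of the proton pump V-ATPase, read 7.96, 8.42, 8.42 and 7.95 against 6.88, 7.25, 7.78 and 7.32 and differed by 0.88 ± 0.19, and by 0.89 ± 0.21 without replicate 4 (limma adjusted p = 0.422 and 0.152). VGLL1, a cofactor of TEAD transcription factors, read 7.49, 8.30, 7.29 and 7.85 against 7.11, 6.35, 6.84 and 7.04 and differed by 0.90 ± 0.22, and by 0.97 ± 0.24 without replicate 4 (limma adjusted p = 0.564 and 0.174). RAB27B, a small GTPase of vesicle secretion, was an exception, reading 6.86 in TiO2-control replicate 4, inside the ZnO-control range of 6.61 to 7.10, and 5.36 to 5.97 in the other 3 TiO2-control arrays. It differed by 0.87 ± 0.26, and by 1.16 ± 0.22 without replicate 4. Of the other 8 of these 12, HDGFL3, LINC01002, SIGLEC6, SIPA1L2, MIR3065 and IL15RA ran from 0.82 to 0.94, and from 0.79 to 1.20 without replicate 4. TCEAL5 was not shown above background in either group, nor AKR1B15 in TiO2-control, so the sizes of their differences are uncertain. TiO2-control replicate 4 was nearer to the ZnO-control mean in 3 of these 12 genes. The groups did not overlap in 10, against 1.71% of all genes without overlap and higher. Choosing genes by p in both fits favours groups that do not overlap, so these counts partly follow from the choice. Of the 5 genes with the smallest p, the others were FAM110A (0.68 ± 0.13, and 0.65 ± 0.15 without replicate 4), SLC2A5, OR8B12 (-0.76 ± 0.15) and LOC100128988 (-0.77 ± 0.13). OR8B12 was not shown above background in ZnO-control, nor LOC100128988 in either group, so the sizes of their differences are uncertain.

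**Figure D2:**
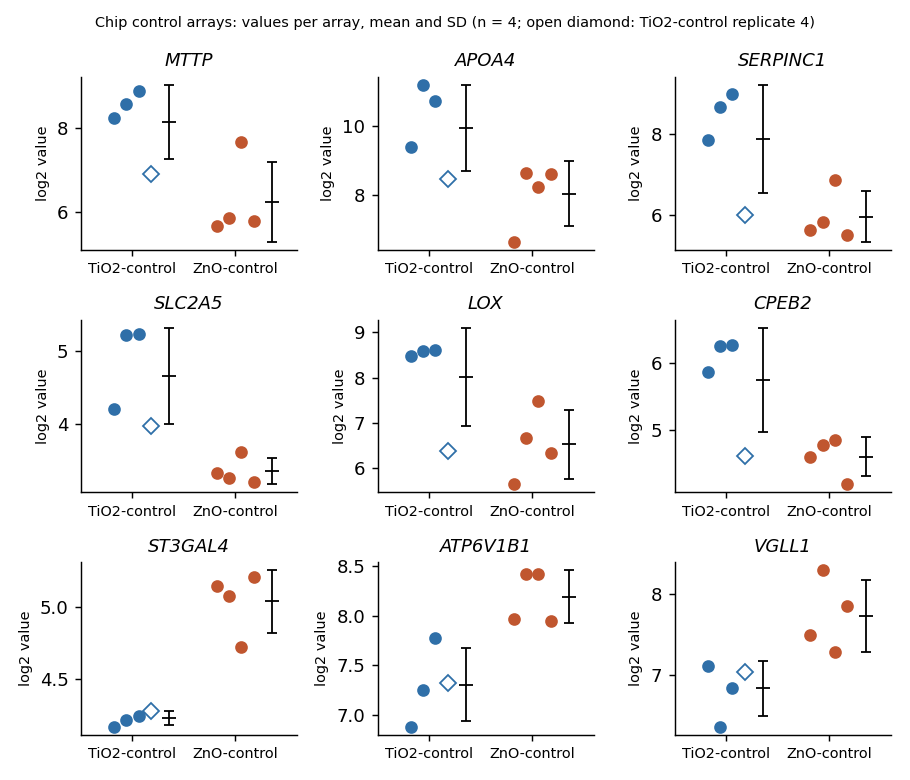
Log2 values (y axis) of 9 genes in the 8 control arrays of the chip; each point is 1 array, the bar beside each group is the mean and SD (n = 4), and the open diamond is TiO2-control replicate 4. For SERPINC1, LOX and CPEB2 the diamond sits within the ZnO-control range (6.00, 6.38 and 4.61), and for ST3GAL4 it sits with TiO2-control (4.28).

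Cholesterol synthesis, controlled by the sterol-sensing SREBP pathway, was among the lists with the most negative medians. Of 19 measured members 2 lay above 0, the median difference was -0.29, and 5 were lower and 0 higher at an unadjusted p below 0.05, against 3.14% and 3.22% of all genes. Without replicate 4 the median was -0.41, and 11 were lower and 0 higher, against 4.34% and 4.91%. STARD4, a cholesterol carrier, read 8.64, 9.08, 8.98 and 8.81 against 9.81, 9.91, 9.61 and 8.74, and differed by -0.64 ± 0.25, or -0.90 ± 0.23 without replicate 4. MVD (-0.48 ± 0.21, and -0.64 ± 0.21 without replicate 4), NSDHL (-0.44 ± 0.17, and -0.56 ± 0.17) and DHCR7 (-0.36 ± 0.14, and -0.46 ± 0.13), enzymes of the mevalonate and sterol steps, had TiO2-control replicate 4 as their lowest array of the group. The integrated stress response, through which ATF4 raises amino acid synthesis genes, had a median of -0.22 over 24 members, with 6 above 0, 8 lower and 0 higher, against the same 3.14% and 3.22% of all genes. That median was -0.30 without replicate 4, with 9 lower and 1 higher, against 4.34% and 4.91%. ASNS, asparagine synthetase, read 7.08, 6.67, 6.75 and 6.63 against 7.51, 7.52, 7.34 and 6.88, a difference of -0.53 ± 0.15, and -0.67 ± 0.14 without replicate 4. PSAT1 of serine synthesis (-0.58 ± 0.15, and -0.62 ± 0.16 without replicate 4), SHMT2 of mitochondrial one-carbon metabolism (-0.38 ± 0.13, and -0.47 ± 0.12) and CTH, which makes cysteine (-0.83 ± 0.25, and -1.06 ± 0.22), had differences of the same sign. No member of either list passed, with or without replicate 4.

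Cell cycle genes lay on the other side of 0. Of 34 members of the G1/S and DNA replication list 31 lay above 0 (median 0.23), and 4 were higher and 0 lower at an unadjusted p below 0.05, against 3.22% and 3.14% of all genes. Without replicate 4 the median was 0.34, and 15 were higher and 0 lower, against 4.91% and 4.34%. MCM7, a subunit of the replicative helicase, read 9.08, 8.63, 8.78 and 8.76 in ZnO-control and 8.44, 8.18, 8.48 and 8.78 in TiO2-control, with replicate 4 inside the ZnO-control range. It differed by 0.34 ± 0.16, and by 0.45 ± 0.16 without replicate 4. TYMS, thymidylate synthase (0.38 ± 0.18, and 0.51 ± 0.18), CDC45, a replication factor (0.43 ± 0.20, and 0.48 ± 0.22), and RRM2, the inducible ribonucleotide reductase subunit (0.27 ± 0.13, and 0.30 ± 0.14), also had positive differences. The median level of the G1/S list relative to the 8-array mean was -0.54 in TiO2-control replicate 2 and -0.15 to 0.25 in the other 7, with TiO2-control replicate 4 the highest. Of 30 genes of the G2/M list 29 lay above 0 (median 0.21), with 2 higher and 0 lower at an unadjusted p below 0.05. For 30 genes that is near the 3.22% of all genes. The G2/M median was 0.28 without replicate 4 and 5 were higher and 0 lower, against 4.91% and 4.34%. CCNB2, a mitotic cyclin (0.37 ± 0.16, and 0.40 ± 0.17 without replicate 4), and UBE2C, a ubiquitin-conjugating enzyme of mitotic exit (0.38 ± 0.17, and 0.42 ± 0.19), were the 2. AURKB and PLK1, mitotic kinases, differed by 0.31 ± 0.17 and 0.31 ± 0.16, and by 0.32 ± 0.19 and 0.38 ± 0.17 without replicate 4. The G2/M list was also lowest in TiO2-control replicate 2, at a median relative level of -0.68, and it was -0.02 to 0.20 in the other 7.

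Interferon-stimulated genes, which encode antiviral proteins, had the largest positive median of the 31 lists (0.34 over 35 members, 28 of them above 0). At an unadjusted p below 0.05 8 members were higher and 0 lower, against 3.22% and 3.14% of all genes. The median was 0.38 without replicate 4 and the counts were again 8 and 0, now against 4.91% and 4.34%. IRF7, the transcription factor that amplifies the interferon response, read 5.62, 5.61, 5.08 and 5.83 in ZnO-control and 4.91, 5.08, 5.01 and 4.69 in TiO2-control, a difference of 0.62 ± 0.17, and 0.54 ± 0.18 without replicate 4 (limma adjusted p = 0.569 and 0.348). IFIT3, which binds foreign RNA complexes, read 6.29, 5.76, 4.80 and 6.14 against 5.01, 4.88, 5.28 and 5.16, so that ZnO-control replicate 3 lay below every TiO2-control array. It differed by 0.67 ± 0.27, and by 0.69 ± 0.30 without replicate 4. ZnO-control replicate 3 stood apart for the whole list, with a median relative level of -0.31 against 0.20 to 0.43 in the other ZnO-control arrays and -0.18 to -0.06 in TiO2-control. IFI35 differed by 0.40 ± 0.15, and by 0.41 ± 0.17 without replicate 4. RSAD2 was not shown above background in either group. Among 28 immediate early genes, the fast transcriptional targets of growth factor signals, 4 were higher and 2 lower, against the same shares of all genes as above, with a median of 0.13. Without replicate 4 8 were higher and 1 lower, against 4.91% and 4.34% of all genes, with a median of 0.20. FOSL1, an AP-1 subunit, read 7.81, 7.55, 7.09 and 8.38 against 6.61, 6.35, 6.51 and 8.04, and its difference was 0.83 ± 0.32 with and 1.22 ± 0.25 without replicate 4. EGR3 was at 0.53 ± 0.20 and JUND at -0.46 ± 0.15, and without replicate 4 at 0.60 ± 0.22 and -0.46 ± 0.16. NR4A3 was not shown above background in ZnO-control. Ribosome biogenesis genes had a median of 0.16, with 26 of 27 above 0 but 0 higher or lower at an unadjusted p below 0.05, and 0.30 with 7 higher, against 4.91% of all genes, without replicate 4. Medians of 6 lists turned sign without replicate 4, namely hypoxia and glycolysis (0.07 to -0.04), metallothioneins (0.10 to -0.03), stem and progenitor genes (-0.06 to 0.05), iron and haem (-0.02 to 0.02), the proteasome (-0.01 to 0.02) and the respiratory chain (-0.00 to 0.03). Markers of immune, stromal and endothelial cells had a median of -0.02 over 15 members, with 0 higher and 1 lower, against 3.22% and 3.14% of all genes. Without replicate 4 it was -0.03 with 0 higher and 2 lower, against 4.91% and 4.34%.

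**Figure D3:**
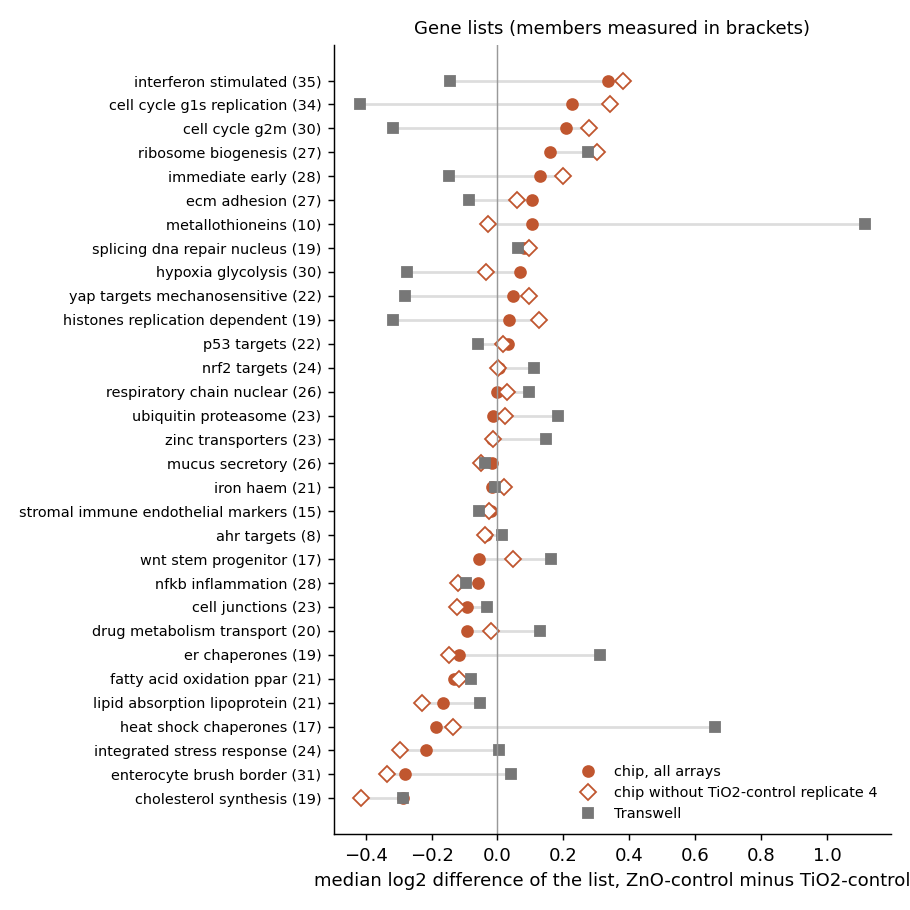
Median log2 difference, ZnO-control minus TiO2-control (x axis), of each of 31 gene lists (y axis, members measured in brackets) in the chip with all arrays, in the chip without TiO2-control replicate 4, and on Transwell. In the chip the medians run from -0.29 for cholesterol synthesis to 0.34 for interferon-stimulated genes, and the Transwell medians of metallothioneins (1.12) and heat shock chaperones (0.66) lie far from their chip values.

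Control media of the same names were compared on Transwell, which shares no array with the chip comparison. There 2981 genes passed (13.3%), 1387 higher (6.19%) and 1594 lower (7.12%), with a standard error of 0.108 for a typical brighter gene against 0.168 in the chip. The chip and Transwell differences correlated across all genes with Pearson r = -0.00797 and Spearman rho = -0.0215, and 0.0381 and 0.0207 without replicate 4. The 22395 genes are not independent replicates, and these values are a description. The difference between the systems was tested for each gene as the chip difference minus the Transwell difference. It passed in 694 genes (3.1%), 426 above 0 (1.9%) and 268 below 0 (1.2%), and in 698 (3.12%) without replicate 4, 545 of the 694 among them. The count was 432 without ZnO-control replicate 1 and 451 without TiO2-control replicate 3 of the chip. In 603 of the 694 genes the Transwell difference itself passed, in 567 it was the larger of the pair in size, and in 626 the signs were opposite. The chip difference had an unadjusted p below 0.05 in 210. The 694 genes were selected for a gap between the chip and Transwell differences, which favours opposite signs. These counts were not set against all genes and are a description.

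**Figure D4:**
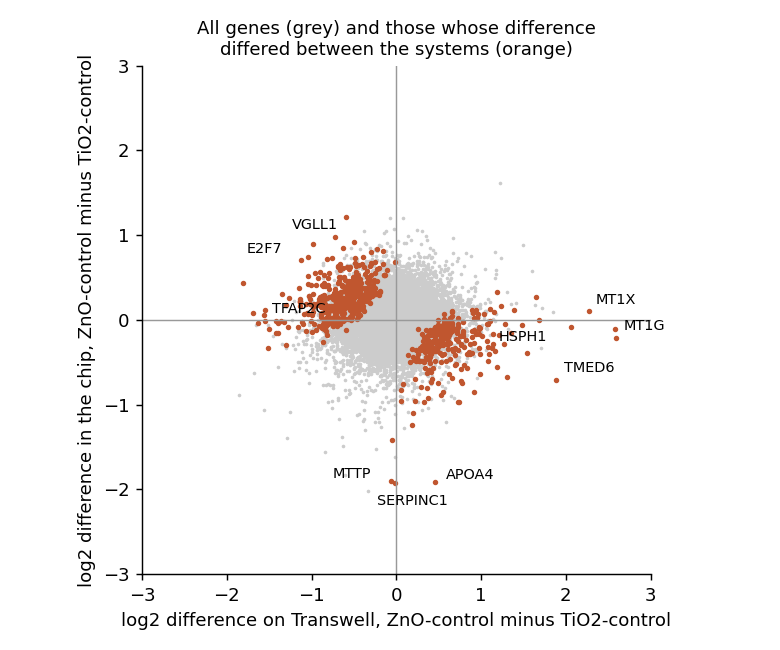
Log2 difference, ZnO-control minus TiO2-control, on Transwell (x axis) and in the chip (y axis); each point is 1 of 22395 genes, and orange points are the 694 genes whose differences differed between the systems. Most orange points lie in the upper left and lower right, which their selection for a difference between the systems favours. MT1X and MT1G lie far to the right near 0 on the chip axis. MTTP, APOA4 and SERPINC1 lie low near 0 or slightly to its right on the Transwell axis.

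Metallothioneins are small proteins that bind zinc and copper, and their genes are switched on by the zinc-sensing factor MTF1 through metal response elements. Nearly identical paralogs can share probes, so values of single members are uncertain. MT1X and MT2A are shown as members with strong signal whose Transwell values separated the media. The 250 bases before each start site were taken from RefSeq on GRCh38.p14, plus strand: chr16:56682220-56682469 for MT1X and chr16:56608334-56608583 for MT2A. Capitals mark matches of either strand to the core of the metal response element, TGCACNC or TGCGCNC.

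MT1X: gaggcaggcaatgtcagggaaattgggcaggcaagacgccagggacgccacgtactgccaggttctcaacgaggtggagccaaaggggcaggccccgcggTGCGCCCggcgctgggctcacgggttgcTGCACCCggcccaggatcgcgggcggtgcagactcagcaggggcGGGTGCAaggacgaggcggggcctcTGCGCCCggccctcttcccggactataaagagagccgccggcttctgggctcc

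MT2A: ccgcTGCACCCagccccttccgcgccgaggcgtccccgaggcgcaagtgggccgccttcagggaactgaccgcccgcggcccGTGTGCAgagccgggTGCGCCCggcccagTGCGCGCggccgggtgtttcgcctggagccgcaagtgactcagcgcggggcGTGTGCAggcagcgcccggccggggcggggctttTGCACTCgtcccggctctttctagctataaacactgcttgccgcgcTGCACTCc

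The stretch of MT1X holds 4 matches and that of MT2A holds 7. Of 35116 promoter stretches of this length 24.8% hold at least 1 match, 1.58% at least 3 and 0.370% at least 4. Promoters were found for 5 of the 10 measured metallothioneins, and MT1H has 8 matches, MT1B 3 and MT4 3. A match is a run of letters and not a measured site.

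In the chip the media overlapped for the metallothioneins. MT1X read 11.41, 11.05, 11.31 and 11.90 in ZnO-control and 11.12, 11.92, 11.23 and 10.98 in TiO2-control, with wide overlap. Its difference was 0.10 ± 0.21 (95% interval -0.33 to 0.54), and -0.01 ± 0.22 without replicate 4. On Transwell the ZnO-control arrays read 10.69 to 11.08 and the TiO2-control arrays 8.53 to 8.78, and MT1X rose by 2.27 ± 0.10 (limma adjusted p = 3.8e-08), so the level of the Transwell TiO2-control arrays was the one that stood apart from all 8 control arrays of the chip. The difference between the systems was -2.17 ± 0.23 (limma adjusted p = 6.27e-06), and -2.28 (adjusted p = 5.44e-06) without replicate 4. MT2A differed by 0.33 ± 0.18 in the chip, and by 0.32 ± 0.20 without replicate 4, and rose by 1.19 ± 0.11 on Transwell (limma adjusted p = 1.4e-05). MT1G read 7.26 to 9.71 in ZnO-control and 7.72 to 9.98 in TiO2-control of the chip and had the most negative difference between the systems (-2.80 ± 0.56, limma adjusted p = 0.00548, and -3.05 with adjusted p = 0.00362 without replicate 4). Unlike for MT1X, both Transwell control groups lay below all 8 control arrays of the chip for MT2A (6.18 to 7.73) and MT1G (3.13 to 6.37). Of the 10 members 0 were higher or lower at an unadjusted p below 0.05 in the chip, with or without replicate 4. On Transwell 6 rose and 0 fell, against 6.19% and 7.12% of all genes, and 3 differed between the systems, all below 0, or 4 without replicate 4, against 1.2% and 1.22% of all genes. MT1M, which was not shown above background in TiO2-control, read 3.20 to 7.20 against 1.84 to 4.62 in the chip. Chip replicates were also unequal. The median relative level of the list was 1.01 in ZnO-control replicate 4 and 0.79 in TiO2-control replicate 2, against -0.63 to 0.07 in the other 6 arrays. Of 23 genes of zinc transport and sensing 0 were higher and 4 lower at an unadjusted p below 0.05 in the chip, against 3.22% and 3.14% of all genes, namely the importers SLC39A2 (-1.10 ± 0.27, and -1.31 ± 0.27 without replicate 4), SLC39A4 (-0.54 ± 0.24, and -0.70 ± 0.24) and SLC39A14 (-0.39 ± 0.12, and -0.43 ± 0.13) and the exporter SLC30A10, which was not shown above background. Without replicate 4 the counts were 1 higher and 4 lower, against 4.91% and 4.34% of all genes. The mean of SLC39A2 in ZnO-control, 3.40, lay close to the array medians of 3.24 to 3.33, so the size of its difference is uncertain. SLC39A14 rose on Transwell by 0.51 ± 0.08 and differed between the systems by -0.90 ± 0.14 (limma adjusted p = 0.00096 and 0.000395), the latter -0.95 (adjusted p = 0.000408) without replicate 4.

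Heat shock chaperones, which refold damaged proteins, had the largest share of members that differed between the systems among the 31 lists. Of 17 measured members 13 rose and 0 fell on Transwell, where the median was 0.66, against 6.19% and 7.12% of all genes. In the chip their median was -0.19, with 0 higher and 2 lower at an unadjusted p below 0.05, against 3.22% and 3.14% of all genes. Without replicate 4 it was -0.13 with 0 higher and 3 lower, against 4.91% and 4.34%. The difference between the systems passed in 12, 11 below 0 and 1 above 0, against 1.2% and 1.9% of all genes, and without replicate 4 in 11, all below 0. The 1 above 0 was HSF1 (the transcription factor of the list, 0.58 ± 0.16, limma adjusted p = 0.049, or 0.0956 without replicate 4). HSPH1, a large chaperone of the cytosol, read 10.17, 10.79, 9.85 and 10.68 in ZnO-control and 10.67, 10.68, 10.64 and 10.82 in TiO2-control of the chip. On Transwell it read 11.04 to 11.20 against 9.87 to 10.26, and its difference between the systems was -1.45 ± 0.20 (limma adjusted p = 0.000123), and -1.41 (adjusted p = 0.000428) without replicate 4. In the chip ZnO-control replicates 1 and 3 were low for the list, at -0.41 and -0.47 relative to the 8-array mean, and replicates 2 and 4 were at 0.25 and 0.21. HSPA1L (-0.67 ± 0.27, and -0.72 ± 0.30 without replicate 4) and HSPA4L (-0.37 ± 0.17, and -0.47 ± 0.18) were the 2 lower members. For HSPA1L only the brightest of 5 probe sets was read. Of 19 chaperones of the endoplasmic reticulum 10 rose and 0 fell on Transwell (median 0.31), against 6.19% and 7.12% of all genes. Their median in the chip was -0.12, or -0.15 without replicate 4. Of these 7 differed between the systems, or 8 without replicate 4, all below 0, against 1.2% and 1.22% of all genes.

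The cell cycle lists ran in opposite directions in the systems. On Transwell 20 of 34 G1/S genes and 12 of 30 G2/M genes fell and 0 rose, with medians of -0.42 and -0.32, against 7.12% of all genes that fell. The difference between the systems passed in 10 G1/S and 5 G2/M genes, all above 0, against 1.9% of all genes, and in 15 and 7 without replicate 4. RRM2 read 8.53, 8.73, 8.78 and 8.32 in ZnO-control and 8.42, 8.15, 8.32 and 8.41 in TiO2-control of the chip, against 7.82 to 8.04 and 8.42 to 8.59 on Transwell, where it fell by 0.55 ± 0.08 (limma adjusted p = 0.00069). The difference between the systems was 0.82 ± 0.14 (limma adjusted p = 0.00144), and 0.85 (adjusted p = 0.00172) without replicate 4. E2F7, a repressor of E2F target genes, read 6.10 to 6.45 against 4.95 to 5.86 in the chip and 5.24 to 5.59 against 6.37 to 6.58 on Transwell. Its difference between the systems was 1.79 ± 0.22 (limma adjusted p = 2.12e-05), and 1.91 (adjusted p = 3.39e-05) without replicate 4. VGLL1 (1.88 ± 0.29), the interferon-induced IFI6 (1.82 ± 0.43), DHRS2 (1.81 ± 0.47), LOC154761 (2.24 ± 0.53) and MIR210HG (1.78 ± 0.39) were the other genes with the most positive values, and they ran from 1.76 to 2.14 without replicate 4. TMED6 (-2.59 ± 0.29), the adhesion molecule TMIGD1 (-2.15 ± 0.34) and SNORA38B (-2.68 ± 0.67) were among the most negative, at -2.47, -2.07 and -2.50 without replicate 4, and SNORA38B missed the threshold without replicate 4 (limma adjusted p = 0.0526).

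For MTTP, SERPINC1 and APOA4 the larger difference was the one in the chip. MTTP read 9.44 to 9.87 in ZnO-control and 9.61 to 9.82 in TiO2-control on Transwell, a difference of -0.07 ± 0.10, and its difference between the systems was -1.83 ± 0.48 (limma adjusted p = 0.0308), and -2.25 (adjusted p = 0.00431) without replicate 4. For SERPINC1 the Transwell difference was -0.01 ± 0.10 and the difference between the systems -1.92 ± 0.51 (limma adjusted p = 0.0344), the latter -2.54 (adjusted p = 0.000396) without replicate 4. For APOA4 these were 0.46 ± 0.17 and -2.37 ± 0.55 (limma adjusted p = 0.016), the latter -2.86 (adjusted p = 0.00181) without replicate 4. Both MTTP and SERPINC1 lay lower in every chip control array than in any Transwell control array except for TiO2-control replicate 3 with SERPINC1 at 8.996, which was within the Transwell range of 8.89 to 9.35. Of the 31 enterocyte genes 6 differed between the systems and of the 21 lipid genes 5, all below 0, against 1.2% of all genes below 0, and without replicate 4 7 and 5, against 1.22%. The cholesterol synthesis list had a median of -0.29 in each system, or of -0.41 in the chip without replicate 4, and on Transwell 8 of 19 members fell and 0 rose, against 7.12% and 6.19% of all genes. Of the 5 genes with the smallest p on Transwell, MT1X, SNORA38B (2.58 ± 0.16), WIPF3 (-1.42 ± 0.08), PIM1 (-1.50 ± 0.09) and TFAP2C (-1.55 ± 0.11), the chip differences ran from -0.10 to 0.10 with all arrays and from -0.29 to 0.08 without replicate 4, and each of these 5 genes differed between the systems (limma adjusted p of 6.27e-06 to 0.0259).

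The exposed arrays of the chip split by nanomaterial set for 9 of the 12 genes with the largest negative differences, the ZnO-exposed arrays lying below every TiO2-exposed array, against 2.14% of all genes. The exposed arrays also entered the spread behind the p limit that chose these genes, so that share is no like yardstick. Some splits were narrow. The highest ZnO-exposed and lowest TiO2-exposed arrays read 3.60 and 3.62 for SLC17A1, 4.94 and 4.99 for TUBAL3, and 4.93 and 5.05 for CPS1. MTTP read 5.18 to 6.51 in the 4 ZnO-exposed arrays and 7.40 to 8.79 in the 4 TiO2-exposed arrays, and SERPINC1 read 5.45 to 6.70 and 7.15 to 8.31. LOX read 6.07 to 7.13 and 7.45 to 8.09, the highest of them TiO2 replicate 4. The 3 that overlapped were XPNPEP2 (5.67 to 5.89 and 5.39 to 8.58), TMT1A (4.28 to 5.51 and 5.25 to 7.88) and MS4A10 (6.08 to 7.47 and 7.18 to 9.35), with TiO2 replicate 4 the lowest TiO2-exposed array in each. ANPEP, ANKRD40CL and CPEB2 also overlapped, at 7.28 to 8.10 and 7.45 to 9.02, at 5.79 to 6.38 and 5.71 to 7.21, and at 4.28 to 4.87 and 4.50 to 5.20, again with TiO2 replicate 4 the lowest of its group. SLC2A5 did not, at 3.20 to 3.75 and 4.22 to 4.94. ST3GAL4, the gene with the smallest p among the controls, read 4.72 to 5.14 in ZnO-exposed and 4.26 to 4.51 in TiO2-exposed arrays. Of the 12 genes named for positive differences, VGLL1 was the only other to split, and narrowly (7.64 to 8.22 and 7.06 to 7.63). The share of all genes with ZnO-exposed arrays above every TiO2-exposed array was not counted, so these splits are a description. The rest overlapped, such as ATP6V1B1 (7.68 to 8.11 and 7.67 to 8.17) and SIPA1L2 (4.67 to 5.38 and 3.96 to 4.95). The exposed arrays differ in metal as well as in medium and culture set, and what each contributes cannot be told apart.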

How the data were processed

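The authors deposited log2 values for 53617 probe sets on 31 arrays, and RMA is the method that the submitters' processing notes name. No version, array annotation or build is given in the sources used here. This method equalises the arrays' distributions and can hide a shift common to all genes. Gene names came from the platform annotation, in which 23871 probe sets had 1 gene, 1842 several and 27904 none listed. For 632 genes with several probe sets the brightest was kept. All 31 columns matched a sample by title.

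Tests used limma 3.58.1 (R 4.3.3), with p-values adjusted over all 22395 genes. The chip comparison was fitted to the 4 chip groups (16 arrays, 12 residual and 4.93 prior degrees of freedom), so that only chip arrays set its spread. Transwell was fitted alike. The difference between the systems was fitted to all 31 arrays with array weights by system. The scripts were tested on simulated data. Exposed arrays entered the fits for the spread only.

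The comparison, the members, the 31 gene lists and the tests were chosen with earlier results of these data known. Named genes were to be the 12 largest differences in each direction among genes passing with and without TiO2-control replicate 4. As there were 0, the 12 in each direction at an unadjusted p below 0.01 in both fits, and the 5 with the smallest p, were named after their values were seen. To these were added for each list described its 4 members of smallest p, the 6 genes per direction with the largest differences between the systems, and the 5 with the smallest p on Transwell. Metallothioneins and genes of the position scale were also named for their values. EPCAM was given as an epithelial marker. Whether chip replicate numbers pair the arrays could not be settled, and the main fits treated the arrays as unpaired. Alternatives were other sets of arrays, priors, weights, centring, a second quantile normalization, a filter on dim genes, the mean of probe sets, stricter thresholds and a replicate block.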

Additional observations from a re-analysis of the deposited data

Results flagged for a closer look

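Over the 88 genes chosen for naming, each control group of 4 chip arrays was checked for 1 array standing far from the other 3, and 15 of 176 groups did. The limit used flags about 5 in 100 unselected, independent groups by chance, and these genes were named for their values and are correlated, so that rate is no yardstick here. TiO2-control replicate 4 was that array in 6. It was low for APOC1 (6.64), HSPA4L (8.63), LOX (6.38), MVD (8.82) and NSDHL (7.71), and high for FOSL1 (8.04). ZnO-control replicate 3 was high for ANPEP (8.03), MTTP (7.66) and XPNPEP2 (6.44). ZnO-control replicate 4 was high for the metallothioneins MT1B (5.73) and MT1E (6.44) and low for PSAT1 (7.39). TFAP2C was low in replicate 2 of both groups (8.16 in ZnO-control and 8.19 in TiO2-control), and IFI35 was low in TiO2-control replicate 3 (6.50).

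The chip and Transwell differences between control media of the same names differed, by the test of the difference itself, in 694 genes (smallest limma adjusted p = 6.27e-06). The largest positive values were those of LOC154761 (2.24), VGLL1 (1.88), IFI6 (1.82), DHRS2 (1.81), E2F7 (1.79) and MIR210HG (1.78). The largest negative values were those of MT1G (-2.80), SNORA38B (-2.68), TMED6 (-2.59), APOA4 (-2.37), MT1X (-2.17) and TMIGD1 (-2.15).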

How the results depend on the processing

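With all 8 arrays no alternative that kept the spread of chip arrays gave a passing gene in the chip. One spread over all 8 groups gave 13 genes, and 317 without TiO2-control replicate 4. Leaving out 1 array at a time gave 0 to 1 genes. Without TiO2-control replicate 4 the control groups alone gave 1 and a common median of the brighter genes 4, and without replicate 4 of both chip TiO2 groups 6 passed. For Transwell leaving out 1 array gave 2139 to 2786 genes, the control groups alone 1953 and 1 spread over all groups 1486. For the difference between the systems leaving out 1 array gave 432 to 698, and the 4 control groups alone 445. No called difference of a single gene reversed under another setting, while the medians of 6 gene lists, none of them tested, changed sign without TiO2-control replicate 4. In addition 47 values of single chip genes passed under a setting where they had not before. Of the single genes' differences between the systems 18 values lost the threshold under another setting. The position scale could not be set up from the comparison with all arrays, since 0 genes passed. Same-numbered ZnO-control and TiO2-control arrays of the chip deviated from their group means with correlations of -0.0101 to 0.175, and 2 of 4 numbers matched themselves best. With 4 arrays per group this check cannot settle whether the numbers pair the arrays. With the replicate number as a block 0 genes passed in the chip, 1 without TiO2-control replicate 4, 2429 on Transwell and 492 for the difference between the systems. The centring and leave-out alternatives without TiO2-control replicate 4 that combine 2 choices were chosen after seeing the data, as was leaving out arrays for the difference between the systems.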
